A study of Mus musculus with 4 samples.

Results

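Interferon-stimulated genes (ISGs) are genes whose transcription is raised when a cell senses an interferon. A fixed list of 44 ISGs was examined in mouse B cells, chosen by name from ISG families. An entry was found for 43 of them among 20599 genes, since Mx1 was not analysed here, and 42 had enough counts to be tested. RNA-Seq was performed on peritoneal B1a cells (n = 2) and on splenic follicular B2 cells (n = 2) of wild-type C57BL/6 mice. B1a cells were sorted as CD23- IgM+ CD5+ cells and B2 cells as IgDhi IgMlo CD21+ cells, without any treatment, from littermate controls of mice that lack DNMT3A in the B lineage. The sample labels give an age of 4 weeks for all libraries, whereas the study's methods give an older age for the mice that supplied B2 cells. A supplementary figure legend of the study, on RNA-Seq reads of B1a and B2 cells, gives 4 weeks for both. Tissue and cell type change together in this comparison, as does age if the methods hold, and their parts cannot be told apart.

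In the classical pathway, type I interferons bind the IFNAR receptor, the kinases JAK1 and TYK2 become active, and STAT2 and IRF9 enter the ISGF3 complex. ISGF3 binds the interferon-stimulated response element (ISRE) in promoters, whereas interferon gamma acts mainly through the gamma-activated site (GAS). Many ISGs are also transcribed at a low basal level without added interferon, and their products block viral entry, translation, replication and assembly or act as sensors of foreign nucleic acid. B1a cells are long-lived, innate-like cells of the body cavities that make natural antibody, and follicular B2 cells are the recirculating cells that enter germinal centers.

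Promoter sequences of the members are shown because many of them carry the ISRE. RefSeq windows of 300 bases on GRCm38.p6, from 250 bases before to 50 bases after an annotated start, were found for 35 of the 44 ISGs. The ISRE core (GAAA, any pair of bases, GAAA), searched on both strands and with overlapping matches allowed, occurred in 18 of the 35 genes (51.4%), against 3.99% of all 27025 genes with a window. The GAS core TTCNNNGAA, which reads the same on either strand, occurred in 9 of the 35 genes (25.7%), against 9.55% of all genes. Every one of the 3 guanylate-binding protein genes in the list held an ISRE match, at -59 in Gbp2, at -45 and -39 in Gbp3 and at -53 in Gbp7, counted from the annotated start. So did each of the 3 nucleic acid sensor genes with a window. The match in Isg15 was a run of overlapping copies that began at -78, -72 and -66. In the following stretches, written 5′ to 3′ on the strand of the gene, capitals mark the match, which reads as its reverse complement where it lies on the other strand. Gbp2, Gbp3 and Gbp7 were the members higher in B1a cells, and Stat2, Isg15, Oas3 and Ifit1 are shown as members that were not.
Gbp2, chr3:142620594-142620623, plus strand: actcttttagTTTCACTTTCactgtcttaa
Gbp3, chr3:142559989-142560018, plus strand: caggacacagTTTCAGTTTCtatttcccag
Gbp7, chr3:142530273-142530302, plus strand: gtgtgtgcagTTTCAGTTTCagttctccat
Stat2, chr10:128270266-128270295, plus strand: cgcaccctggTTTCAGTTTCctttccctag
Isg15, chr4:156200871-156200900, minus strand: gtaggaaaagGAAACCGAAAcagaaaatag
Oas3, chr5:120777715-120777744, minus strand: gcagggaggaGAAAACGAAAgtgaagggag
Ifit1, chr19:34640775-34640804, plus strand: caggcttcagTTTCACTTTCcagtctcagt
The others shown passed the test's threshold in neither direction and are examples from the 18 genes with a match. All stretches were found by searching for the ISRE core, so the letters they share follow from the search. They do not compare members higher in B1a cells with the rest. No promoter window was found for Parp14, the member that passed the threshold as higher in B2 cells. Whether the member higher in B2 cells holds a match is therefore not shown. A match is a description of the sequence and not of a bound factor.

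**Figure D1:**
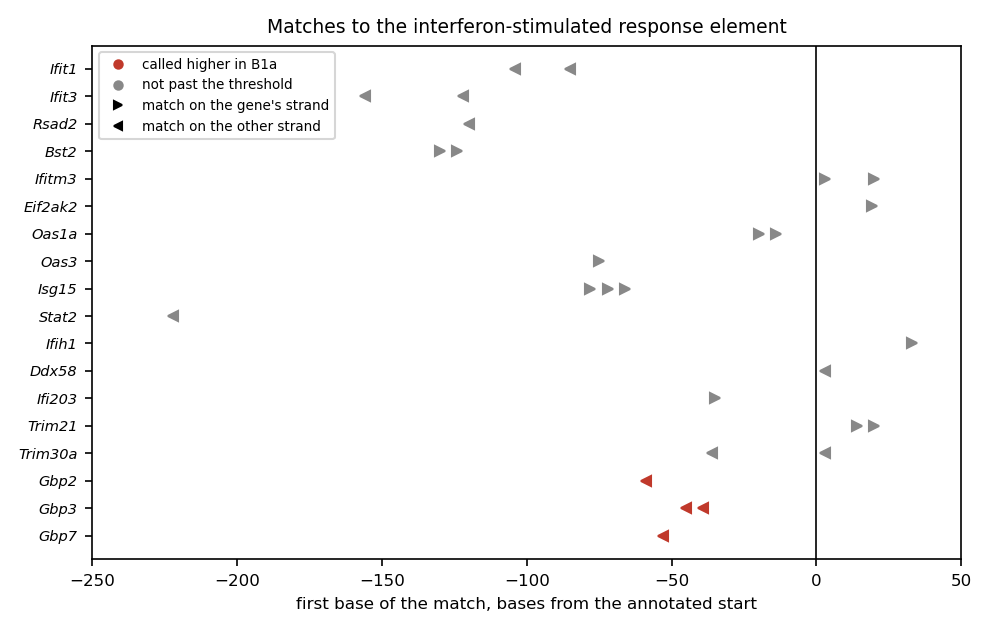
Position of each ISRE match in the promoter windows of the 18 ISGs that held at least 1, in bases from the annotated start (x axis, 0 marked by a line). Arrowheads give the strand of the match, red marks the genes with a higher level in B1a cells and gray those past no threshold; the red matches of Gbp2, Gbp3 and Gbp7 sit between -59 and -39.

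The libraries held between 11032732 and 18588623 expected counts, RSEM's estimate of reads per gene. A floor of 3 counts, taken as the smallest amount distinguishable from none, equals 0.161 to 0.272 CPM when scaled by library size alone. The CPM values of genes are counts scaled by library size and TMM factor. The floor covers counting error only, because PCR copies were not marked by molecular identifiers. All 6 B cell markers tested lay above the floor in every library. Markers of the gates ran with their labels, as B1a markers summed to 1180 and 892 CPM in the B1a libraries and to 75.7 and 75.3 CPM in the B2 libraries. The 4 B2 markers differed by a smaller fold, with sums of 1320 and 1420 CPM in the B1a libraries and 2460 and 2540 CPM in the B2 libraries. The B1a libraries also differed from each other more than the B2 libraries did. Between the B1a replicates 200 genes went from 100 counts or more to 3 or fewer, while 4 did so between the B2 replicates, and 2 ISGs, Ifit1 and Ifit3, were among these B1a genes.

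The first question was whether ISGs as a family differed between B1a and B2 cells. Most ISGs had lower values in B1a than in B2 cells, but few differences passed the adjusted threshold, and the guanylate-binding protein genes ran in the opposite direction. Past an adjusted p of 0.05 in edgeR's quasi-likelihood test, 3 of the 42 tested ISGs were higher in B1a cells (Gbp2, Gbp3 and Gbp7) and 1 was higher in B2 cells (Parp14). Over all 12078 genes tested, 5.74% passed, with 4.24% higher in B1a and 1.50% higher in B2 cells, beside 9.52% of the tested ISGs. The direction of calls over all genes depended on the scale, since 73.9% of the calls on counts but 53.3% of those on log2(TPM + 1) were higher in B1a cells. At an unadjusted p under 0.05, 11 ISGs (26.2%) were lower in B1a cells, against 9.22% of all genes, and 4 (9.52%) were higher, against 11.7%. Both B1a libraries lay below both B2 libraries for 20 ISGs (47.6%), against 29.0% of all genes, and above them for 8 (19.0%), against 25.3%. The fitted log2 fold change, B1a over B2, was negative for 32 ISGs and positive for 10, with a median of -0.45 beside -0.03 over all genes. On log2(TPM + 1), 33 ISGs were negative and 9 positive, with a median of -0.79 beside -0.29 over all genes. ISGs share their libraries, so these shares describe the 4 libraries and carry no test. Of the 42 tested ISGs, 35 had at least 10 counts in every library, and the others passed the filter through only some libraries.

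**Figure D2:**
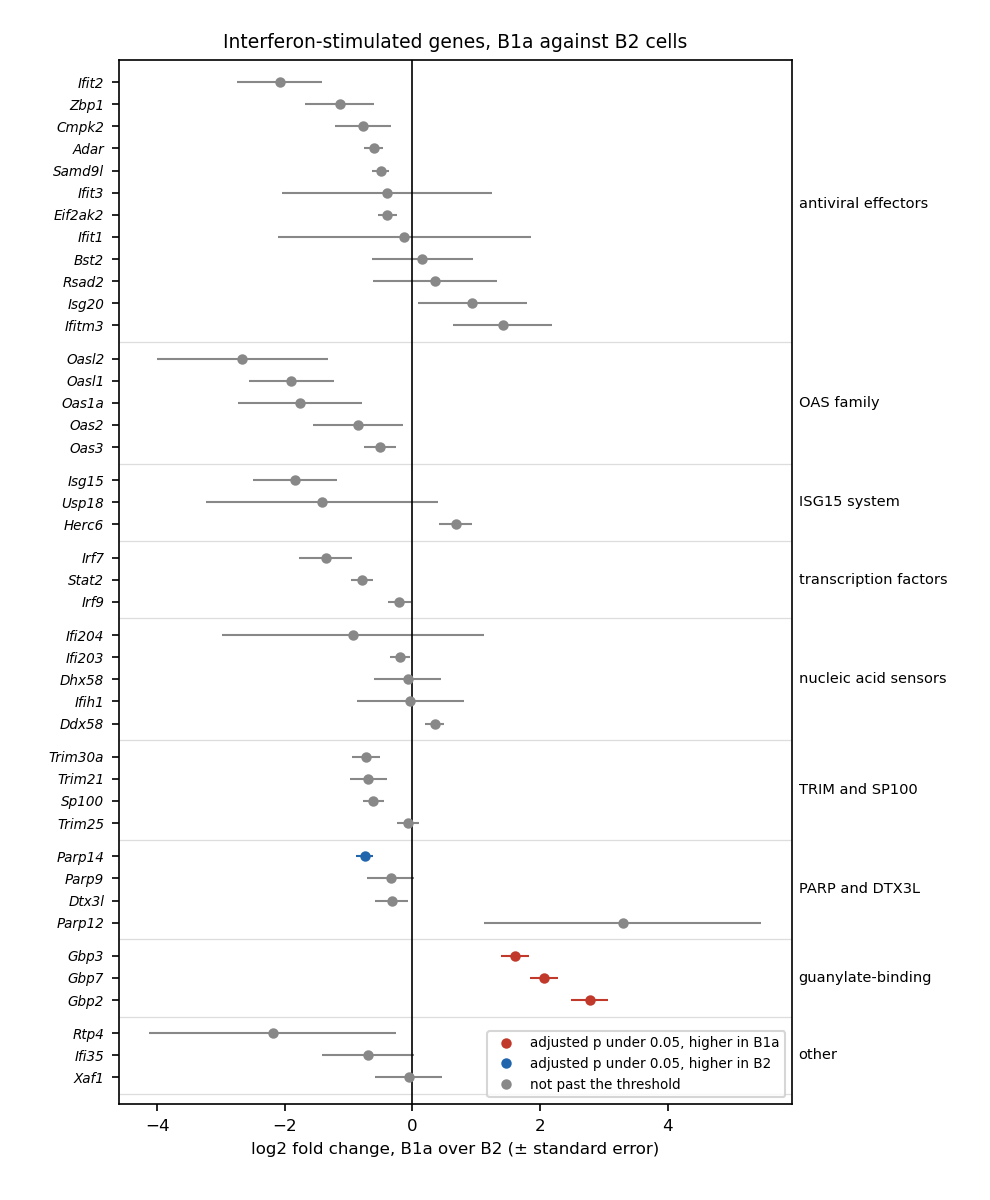
Log2 fold change of each of the 42 tested ISGs, B1a over B2 (x axis), with the standard error as a bar, grouped by role. Red marks Gbp2, Gbp3 and Gbp7, blue marks Parp14 and gray the members not past the adjusted p of 0.05; 32 points lie left of 0 and 10 right of it.

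The guanylate-binding proteins (GBPs) are large GTPases that coat vacuoles and bacteria in the cytosol and help to break open the compartment of an intracellular pathogen. Gbp2 measured 78.2 and 104 CPM in the B1a replicates and 11.9 and 14.6 CPM in the B2 replicates. Every B1a value was thus several times every B2 value, and the fold change was 6.87 (log2 2.78 ± 0.29, SE, adjusted p = 0.00585). Gbp7 measured 160 and 139 CPM in B1a cells and 31.1 and 40.1 CPM in B2 cells, which is a 4.19-fold difference (log2 2.07 ± 0.22, SE, adjusted p = 0.00605). Gbp3 measured 159 and 117 CPM in B1a cells and 44.3 and 46.0 CPM in B2 cells, which is a 3.06-fold difference (log2 1.61 ± 0.22, SE, adjusted p = 0.0141). The groups did not overlap for any of the 3 genes, and each kept its call when any single library was left out. Gbp3 missed the threshold in 1 of 10 alternatives, limma on log2(TPM + 0.1), at an adjusted p of 0.0623, with the others down to 3.36e-07. Gbp7 is annotated at chr3:142530336-142550151, Gbp3 at chr3:142560016-142573213 and Gbp2 at chr3:142620663-142638008, so they are neighbors. Reads shared between these related genes left little doubt in the counts, since RSEM's posterior standard deviation was at most 0.753% of the count in any library.

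Other members of the GBP family, which are not in the ISG list, did not follow this pattern together. Gbp5, a neighbor at chr3:142496934-142522344, measured 61.4 and 43.5 CPM in B1a cells and 40.0 and 52.4 CPM in B2 cells, so the groups overlapped. Gbp9, from the GBP cluster on chromosome 5, was lower in B1a cells, at 72.6 and 49.4 CPM against 175 and 190 CPM (log2 -1.58 ± 0.23, SE, adjusted p = 0.0168). Gbp4 from the same cluster measured 98.9 and 47.0 CPM in B1a and 113 and 130 CPM in B2 cells (adjusted p = 0.321). Gbp6 and Gbp8 had fitted log2 fold changes of 0.76 and 2.72 without passing the threshold, and Gbp10 was too sparse to be tested. The family therefore held called genes in both directions, 3 from chromosome 3 higher and 1 from chromosome 5 lower in B1a cells.

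Markers of macrophages, which also express GBPs, were examined beside this result. Of 9 macrophage markers 8 were measured, and they summed to 165 and 199 CPM in the B1a libraries and to 56.2 and 55.1 CPM in the B2 libraries. Above the floor lay 6 of the 8 in both B1a libraries and 5 in both B2 libraries. Lyz2 supplied 127 and 136 CPM of the B1a sums. Csf1r measured 16.8 and 21.8 CPM in B1a and 21.2 and 18.3 CPM in B2 cells, and Fcgr1 and Vsig4 had 0 counts in both B1a libraries. Erythroid genes summed to 78.7 and 504 CPM in the B1a replicates and to 36.1 and 80.7 CPM in the B2 replicates, whereas 4 measured neutrophil markers had 0 counts in B1a cells. The 6 markers of plasmacytoid dendritic cells summed to 588 and 594 CPM in the B1a libraries and to 256 and 251 CPM in the B2 libraries. In each cell type 4 of the 6 lay above the floor in both libraries. Of these sums, Tcf4, a gene that B cells also express, made up 546 and 512 CPM in B1a and 213 and 215 CPM in B2 cells, and Klk1 and Cox6a2 had 0 counts in both B1a libraries. The 4 mast cell markers summed to 19.2 and 8.72 CPM in B1a and to 1.47 and 0.94 CPM in B2 cells. The part of other cells in the ISG values was not tested. In bulk samples fewer cells of a type and less RNA per cell cannot be told apart.

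**Figure D3:**
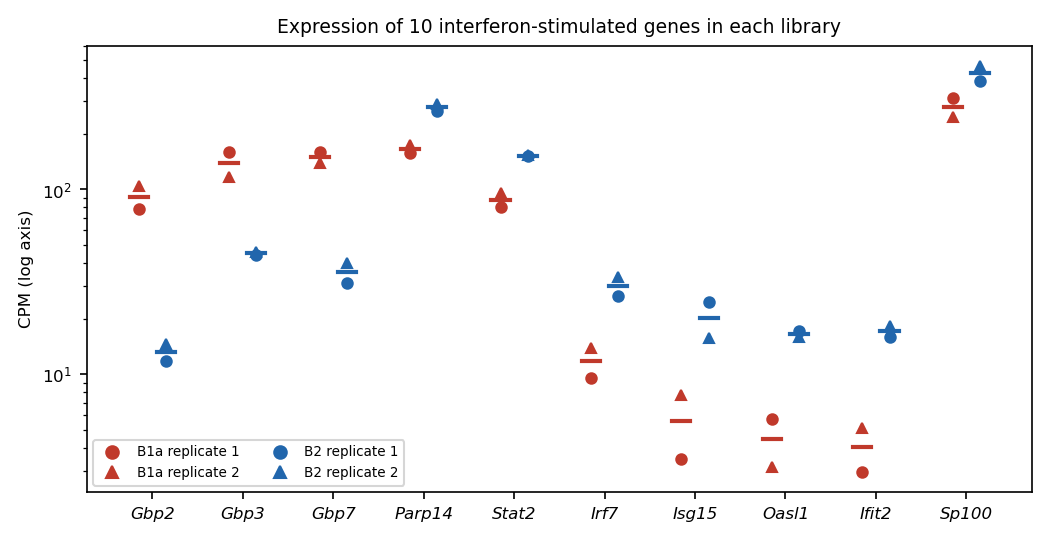
CPM on a log axis of 10 ISGs in each library, with red for B1a and blue for B2 cells, circles for replicate 1, triangles for replicate 2 and a bar for the mean of each group. The red symbols lie above the blue ones for Gbp2, Gbp3 and Gbp7 and below them for the other 7 genes, of which Parp14 passed the threshold.

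PARP9, PARP12 and PARP14 are ADP-ribosyltransferase family members, and DTX3L is the ubiquitin ligase partner of PARP9. Parp14, which encodes a mono-ADP-ribosyltransferase also known as a cofactor of STAT6 in interleukin-4 signaling, measured 158 and 174 CPM in B1a cells and 265 and 291 CPM in B2 cells. Replicates differed by 1.10-fold within either group, and the level was 1.68-fold higher in B2 cells (log2 -0.75 ± 0.14, SE, adjusted p = 0.0356). The call depended on the processing: 8 of 10 alternatives kept it, with adjusted p between 0.000282 and 0.0579, and it was lost when either B2 library was left out, at adjusted p of 0.115 without replicate 1 and 0.343 without replicate 2. Dtx3l measured 82.0 and 134 CPM in B1a cells and 133 and 138 CPM in B2 cells, and Parp9 had 70.7 and 34.2 CPM in B1a and 62.9 and 69.9 CPM in B2 cells. For both, the groups overlapped and the B1a replicates ran in opposite order, although the genes overlap by annotation on chromosome 16 and strand use in the counting was not given in the sources used here. Parp12 was sparse, with 69 and 16 counts in B1a cells and 9 and 0 counts in B2 cells. It had the largest positive fold change of any tested ISG (log2 3.30), but its replicates varied widely and it did not pass the threshold (adjusted p = 0.472).

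The 3 transcription factors of the list were all lower in B1a cells, but none passed the threshold. Each had both B1a libraries below both B2 libraries, an order also seen for 29.0% of all genes tested. Stat2, the STAT found in ISGF3, measured 80.0 and 96.1 CPM in B1a cells and 152 and 153 CPM in B2 cells. It missed the threshold narrowly (log2 -0.79 ± 0.17, SE, adjusted p = 0.0578) and passed it in 7 of 10 alternatives, with adjusted p from 0.00584 to 0.0623. Irf7, the factor that amplifies production of interferon alpha, measured 9.58 and 13.9 CPM in B1a cells and 26.6 and 33.7 CPM in B2 cells (log2 -1.36 ± 0.42, SE, adjusted p = 0.145). Irf9, the DNA-binding subunit of ISGF3, measured 85.6 and 92.6 CPM in B1a cells and 96.5 and 109 CPM in B2 cells, a difference within the replicate error (log2 -0.21 ± 0.18, SE, adjusted p = 0.601). The 3 factors thus ranged from a difference larger than 2-fold in Irf7 to nearly level values in Irf9, and the ISGF3 subunits were not lower to the same degree, although the difference between them was not tested.

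ISG15 is a ubiquitin-like protein, HERC6 is the main ligase that attaches it in mice, and USP18 removes it and also restrains the IFNAR receptor. Isg15 measured 3.49 and 7.73 CPM in B1a cells and 24.6 and 15.7 CPM in B2 cells. All B1a values were lower, but replicates of both groups varied widely and the 3.59-fold difference did not pass (log2 -1.84 ± 0.66, SE, adjusted p = 0.189). Herc6 ran the other way, at 52.9 and 47.8 CPM in B1a cells and 33.3 and 29.7 CPM in B2 cells (log2 0.68 ± 0.26, SE, adjusted p = 0.216). Usp18 had 93 and 0 counts in the B1a replicates and 118 and 231 counts in the B2 replicates, so its B1a level was not defined by these data. The conjugate and its ligase therefore had fitted differences of opposite sign, neither past the threshold.

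The oligoadenylate synthetase (OAS) family senses double-stranded RNA, and its enzymatically active members make the second messenger that turns on RNase L. All 5 OAS members had negative fold changes, with a median log2 value of -1.76. Both B1a libraries lay below both B2 libraries for 4 of the 5, beside 29.0% of all genes tested. The threshold was passed by 0 of them, and only Oasl1 had an unadjusted p under 0.05. Oas3, the OAS gene with the highest level per length, measured 51.6 and 39.7 CPM in B1a cells and 67.5 and 62.6 CPM in B2 cells (adjusted p = 0.319). Oasl1, which encodes a repressor of Irf7 translation, measured 5.73 and 3.15 CPM in B1a cells and 17.2 and 15.9 CPM in B2 cells (log2 -1.90 ± 0.67, SE, adjusted p = 0.186). Oasl2 had the most negative fold change of any ISG, but it rested on 3 and 25 counts in B1a cells against 110 and 125 counts in B2 cells (log2 -2.67 ± 1.34, SE, adjusted p = 0.339). Oas1a had 26 counts in each B1a library, against 70 and 188 in the B2 libraries, and RSEM's posterior standard deviation reached 12.3% of its count, so the assignment of its reads is uncertain. Oas2 was the member that overlapped, since its B1a replicates stood at 14.96 and 4.67 CPM.

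The antiviral effectors of the list, 12 measured genes that act on viral entry, RNA or translation, gave 8 negative and 4 positive fold changes and 0 calls. Samd9l, which encodes a restriction factor of poxviruses, measured 460 and 430 CPM in B1a cells and 575 and 681 CPM in B2 cells (log2 -0.50 ± 0.13, SE, adjusted p = 0.0975), and it passed in 5 of 10 alternatives, whose adjusted p ranged from 0.00544 to 0.106. Eif2ak2, which encodes the RNA-dependent kinase PKR, measured 250.6 and 200 CPM in B1a cells and 291 and 299 CPM in B2 cells (log2 -0.39 ± 0.15, SE, adjusted p = 0.223). Adar, the editor of double-stranded RNA, measured 180 and 207 CPM in B1a and 267 and 321 CPM in B2 cells (log2 -0.61 ± 0.16, SE, adjusted p = 0.0929). Each of these 3 abundant genes had both B1a libraries below both B2 libraries, by a modest fold. Of the 12 effectors, 6 had this order, beside 29.0% of all genes tested, and 2 had the opposite order, beside 25.3%.

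Low-abundance effectors varied more. Ifit2, which encodes an RNA-binding inhibitor of translation, measured 2.96 and 5.12 CPM in B1a cells and 15.95 and 18.3 CPM in B2 cells, and the 4.23-fold difference did not pass the threshold (log2 -2.08 ± 0.66, SE, adjusted p = 0.154). Its relatives were unusable in B1a cells. Ifit1 had 0 and 103 counts in the B1a replicates and 74 and 71 in the B2 replicates, and Ifit3 had 180 and 1 counts in B1a and 136 and 184 in B2 cells, so the B1a replicate that lacked Ifit1 was the one that held Ifit3. Zbp1, a sensor that triggers necroptosis, and Cmpk2 lay lower in both B1a libraries, with log2 fold changes of -1.14 and -0.77, and Bst2 and Rsad2 overlapped. Ifitm3, which blocks fusion of viruses in endosomes, and Isg20, an exonuclease, lay above both B2 libraries, with log2 fold changes of 1.41 ± 0.78 (SE) and 0.94 ± 0.85 (SE), and neither passed the threshold.

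Of the 5 cytosolic nucleic acid sensors, 0 passed the threshold. Ddx58, which encodes the RNA sensor RIG-I, measured 198 and 223 CPM in B1a cells and 157 and 174 CPM in B2 cells (log2 0.35 ± 0.15, SE, adjusted p = 0.257). Ifi203, an abundant gene of the DNA-binding PYHIN family, measured 451 and 502 CPM in B1a cells and 476 and 613 CPM in B2 cells, so the groups overlapped (adjusted p = 0.569). Ifih1, which encodes the RNA sensor MDA5, and Dhx58, which encodes their regulator LGP2, had log2 fold changes of -0.03 and -0.08. The sign of both turned when a single library was left out, so neither difference is settled by these data. Ifi204, another PYHIN gene, had 0 and 21 counts in the B1a replicates against 25 and 28 in the B2 replicates. The PYHIN genes are close paralogs, and Ifi203 and Ifi204 are each the sum of 3 deposited entries, which makes their values uncertain.

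TRIM proteins are ubiquitin ligases of the antiviral response, and SP100 is a component of PML nuclear bodies. Sp100 measured 312 and 248 CPM in B1a cells and 388 and 467 CPM in B2 cells (log2 -0.61 ± 0.17, SE, adjusted p = 0.110), with a pass in 4 of 10 alternatives and adjusted p from 0.00281 to 0.122. Trim30a measured 85.0 and 112 CPM in B1a cells and 143 and 185 CPM in B2 cells (log2 -0.73 ± 0.22, SE, adjusted p = 0.134). Trim21, the cytosolic antibody receptor, measured 23.7 and 27.1 CPM in B1a and 41.6 and 40.3 CPM in B2 cells (adjusted p = 0.254). Trim25, the ligase that acts on RIG-I, overlapped, at 241 and 300 CPM in B1a and 257 and 310 CPM in B2 cells. Sp100, Trim30a and Trim21 thus lay lower in both B1a libraries without passing the threshold, an order also seen for 29.0% of all genes tested.

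Of the remaining members, Ifi44 had at most 1 count in any library and was not tested. Rtp4 had 0 and 29 counts in the B1a replicates and 68 and 116 in the B2 replicates. Ifi35 had 70 and 337 counts in the B1a replicates and 324 and 597 in the B2 replicates, and Xaf1, which encodes a proapoptotic ISG, had 551 and 187 counts in B1a against 381 and 687 in B2 cells. No B1a level can be read from such pairs, and none of these genes passed the threshold.

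Replicates were then compared within each cell type. Among the 35 ISGs with at least 10 counts in every library the median difference between replicates was 1.32-fold in B1a cells and 1.14-fold in B2 cells, and it exceeded 2-fold for 8 of the 35 in B1a cells and 1 of the 35 in B2 cells. ISGs did not stand apart in this, since the medians were 1.39-fold and 1.14-fold over the 10418 tested genes with more than 3 counts in every library. The tested ISGs with more than 3 counts in every library were the same 35. Ifit1 and Ifit3 were the 2 members with at least 100 counts in 1 B1a replicate and at most 3 in the other, and B2 cells had 0 such members. When replicate 1 of B1a was left out the fitted log2 fold change of Ifit1 was 0.88, and when replicate 2 was left out that of Ifit3 was 0.59, so neither gene had a stable direction. The sign of Rsad2, Bst2, Ifih1, Dhx58, Ifi204, Trim25, Parp9, Ifi35 and Xaf1 also turned when a single library was left out.

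**Figure D4:**
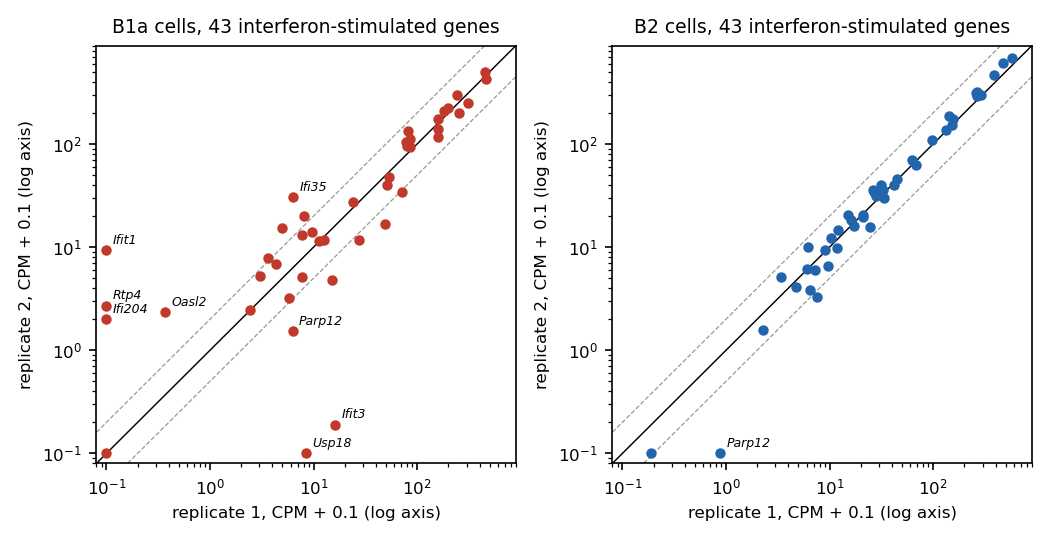
CPM + 0.1 of the 43 ISGs in replicate 1 (x) against replicate 2 (y) on log axes, for B1a cells (left, red) and B2 cells (right, blue), with a solid line at equality and dashed lines at 2-fold. Genes more than 4-fold apart on this scale are named; 8 are named in B1a cells, among them Ifit1 with 0 and 103 counts and Ifit3 with 180 and 1 counts, and 1 in B2 cells, Parp12.

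Levels were compared between genes in TPM, a share of transcripts that corrects for their length. The order of the top members was shared, as Sp100 (307 TPM in B1a, 552 TPM in B2 cells), Ifi203 (235 and 324 TPM) and Samd9l (193 and 322 TPM) held ranks 1 to 3 of 43 in either cell type. The B1a TPM values of Gbp3 (123 ± 31.5, SD, n = 2) and Eif2ak2 (121 TPM), ranked 4 and 5, lay within this spread. The widest shifts in rank were those of Gbp2, from rank 31 in B2 to 8 in B1a cells, and Gbp7, from 28 to 11, followed in the opposite direction by Isg15, from 12 to 27, and then by Gbp3, from 17 to 4. In B1a cells 6 members exceeded 100 TPM and in B2 cells 9 did. Summed over members, ISGs made up 3388 and 3422 CPM of the B1a libraries and 3806 and 4368 CPM of the B2 libraries. The 3 GBP genes contributed 397 and 361 CPM to the B1a sums but 87.3 and 101 CPM to the B2 sums, and without them the sums were 2991 and 3061 CPM against 3718 and 4267 CPM.

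A second list of 80 other interferon-responsive genes was used to look beyond the named members. Of the 66 tested, 6 were higher in B2 and 1 was higher in B1a cells, in all 10.6% of the list beside 5.74% of all genes. Fold changes went both ways, with 36 negative and 30 positive values and a median log2 value of -0.01. At an unadjusted p under 0.05, 15 genes (22.7%) were lower in B1a cells, against 9.22% of all genes, and 6 (9.09%) were higher, against 11.7%. The largest difference among the called genes was in Ms4a4c, a membrane protein gene of the CD20 family, at 16.7 and 15.99 CPM in B1a and 162 and 201 CPM in B2 cells, or 11.1-fold (log2 -3.48 ± 0.21, SE, adjusted p = 0.00138). The PYHIN genes Pydc3 (39.1 and 70.5 against 206 and 278 CPM, adjusted p = 0.0193), Pydc4 (13.3 and 8.90 against 42.0 and 53.1 CPM, adjusted p = 0.0331) and Pyhin1 (162 and 223 against 410 and 574 CPM, adjusted p = 0.0278) were also lower in B1a cells. The call of Pydc4 was lost without B2 replicate 1 (adjusted p = 0.0715), without B2 replicate 2 (adjusted p = 0.324) and in 1 of 10 alternatives, log2(TPM + 0.1), at an adjusted p of 0.0556, the highest of a range down to 0.000185. Slfn8, a member of the Schlafen family, measured 79.1 and 62.5 CPM in B1a and 169 and 215 CPM in B2 cells (adjusted p = 0.0170), and Gbp9 is described above. Cd274, which encodes the checkpoint ligand PD-L1, was the gene higher in B1a cells, at 323 and 207 CPM against 102 and 75.5 CPM (log2 1.58 ± 0.27, SE, adjusted p = 0.0280), a call kept in 8 of 10 alternatives with adjusted p up to 0.0953. The promoter windows of 34 of 67 genes of this list (50.7%) held the ISRE core, a share like that of the ISGs.

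Genes of the interferon pathway itself were then examined, of which 35 of 54 were tested and 3 passed. These 3 made up 8.57% of the tested pathway genes, beside 5.74% of all genes, with 1 higher in B1a and 2 higher in B2 cells. No ligand was abundant. Of 20 interferon genes 17, including Ifnb1, had 0 counts in all 4 libraries. This limits each to 3 counts, or 0.161 to 0.272 CPM when scaled by library size alone. Ifng, the ligand of the GBP-inducing type II response, had 0 counts in both B1a libraries and 2 and 1 counts in the B2 libraries, Ifnz reached 5 counts in 1 B2 library, and Ifnk had 8 and 31 counts in B1a and 11 and 4 in B2 cells. The receptor genes were expressed, and 0 of 6 passed the threshold. Ifnar1 measured 694 and 825 CPM in B1a and 953 and 945 CPM in B2 cells (adjusted p = 0.210), and Ifnar2 measured 34.0 and 29.1 CPM against 51.8 and 52.8 CPM (adjusted p = 0.187). Ifngr2, the signaling chain of the interferon gamma receptor, measured 71.5 and 70.6 CPM in B1a and 117 and 133 CPM in B2 cells and missed narrowly (log2 -0.82 ± 0.18, SE, adjusted p = 0.0574), while Ifngr1 overlapped. The kinase genes divided, with log2 fold changes of -0.44 for Jak1, 0.76 for Jak2 and 0.58 for Tyk2, and none passed.

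The calls of the pathway fell on a transcription factor, a phosphatase and a chaperone of Toll-like receptors. Irf8, a factor of B cell and myeloid development, measured 116 and 103 CPM in B1a and 395 and 386 CPM in B2 cells, 3.57-fold higher in B2 cells (log2 -1.84 ± 0.13, SE, adjusted p = 0.00236). The call held in 10 of 10 alternatives and without any single library. The factors Irf1, Irf2, Irf3 and Irf5 did not pass, with log2 fold changes between -0.34 and 0.32. Ptpn6, which encodes the phosphatase SHP-1, was higher in B2 cells, at 451 and 356 against 766 and 710 CPM (log2 -0.87 ± 0.15, SE, adjusted p = 0.0283). Unc93b1, which encodes the chaperone of nucleic acid-sensing Toll-like receptors, was higher in B1a cells, at 954 and 755 against 537 and 507 CPM (log2 0.71 ± 0.14, SE, adjusted p = 0.0487), a call kept in 6 of 10 alternatives with adjusted p up to 0.155 and lost without B2 replicate 2, at an adjusted p of 0.0874. Socs1 and Socs3, feedback inhibitors of JAK kinases, had positive fold changes of log2 1.89 ± 0.99 (SE) and 2.50 ± 0.73 (SE) that did not pass.

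**Figure D5:**
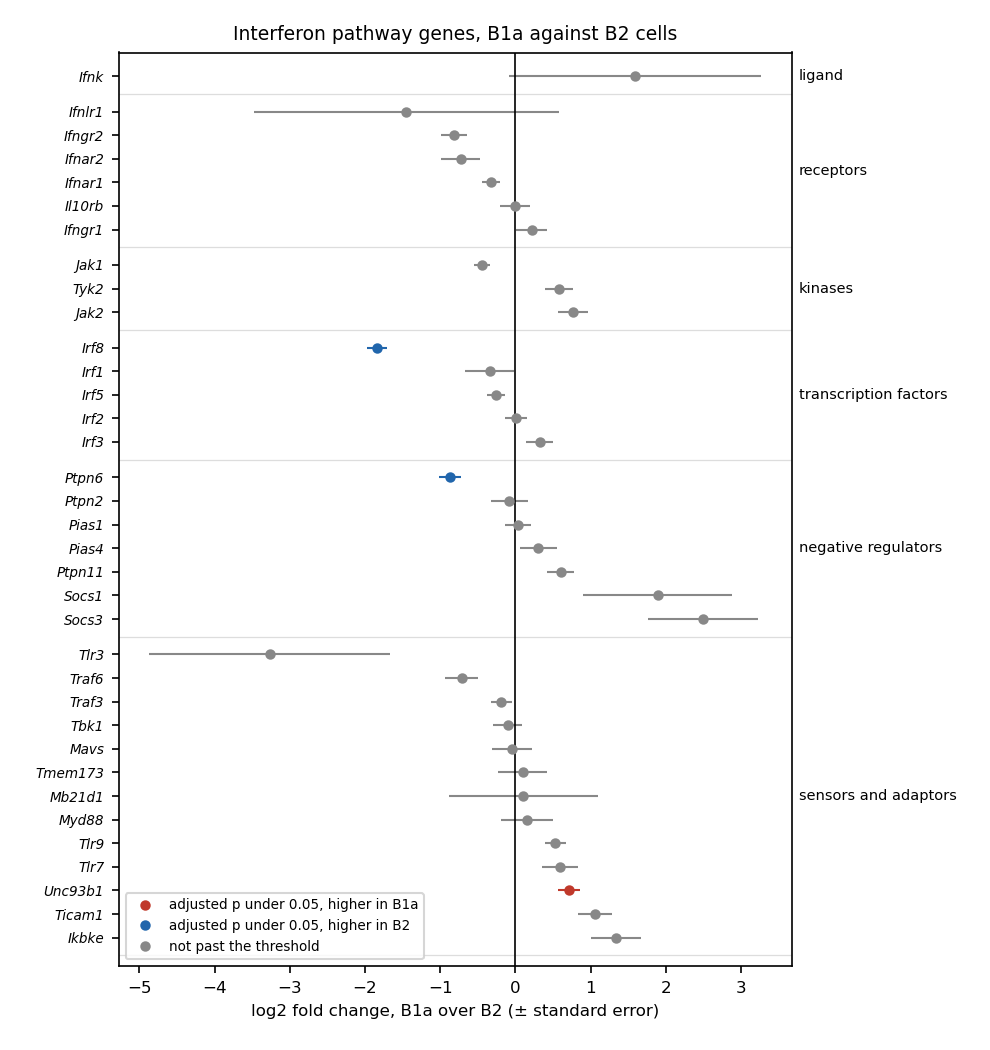
Log2 fold change of the 35 tested interferon pathway genes, B1a over B2 (x axis), with the standard error as a bar, grouped by role. Blue marks Irf8 and Ptpn6, higher in B2 cells, red marks Unc93b1, higher in B1a cells, and gray the genes not past the adjusted p of 0.05.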

How the data were processed

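RNA-Seq of 2 B1a and 2 B2 wild-type libraries was analyzed, each replicate being, by the study's methods, from a separate mouse. Per the labels, total RNA was depleted of ribosomal RNA and reads were quantified with RSEM 1.2.29 on mm10. The paper instead names another library kit, enrichment of polyadenylated RNA and another RSEM version, with RefSeq annotation, so how RNA was selected, and thus which transcripts the counts and TPM cover, is not settled. The authors deposited an expected count per gene entry, without normalization, and RSEM shares a read among all entries it matches. The authors also deposited TPM, scaled to a common total per library, and, as a signal column, RSEM's posterior standard deviation of each count; FPKM was not used.

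Expected counts of 21970 entries were summed by symbol, rounded, passed through filterByExpr and TMM scaling, and tested with edgeR 4.0.16 (R 4.3.3; quasi-likelihood, no replicate block, Benjamini-Hochberg adjustment over 12078 genes, threshold 0.05). Standard errors were derived from the F statistic, and CPM are TMM-scaled. The methods' test, EBSeq, was not run here. The tests were also run on simulated data with changes larger than most seen here and the same spread in both cell types. Those runs therefore do not cover smaller differences or the wider spread of the B1a replicates. The members and lists were chosen with earlier results of these data known. Values are given for members past the threshold, for the 2 members with the highest TPM and the one with the largest fold change of each role, and for members present in 1 replicate only (at least 100 counts in 1 and at most 3 in the other); further members were added after their values were seen. Other lists are given by counts and by their called genes, with further genes likewise added. Alternatives were DESeq2 1.42.0, upper quartile factors, limma-voom (limma 3.58.1), a minimum of 10 counts per library, a minimum of 1 count in any library, limma where the mean TPM was 1 or more, on log2(TPM + 1) and log2(TPM + 0.1), a replicate block, a log2 fold change of at least 1, unsummed entries and each replicate left out; limma-voom weighted by cell type was added after seeing the data. The 10 alternatives counted beside single genes leave out the fold minimum and the left-out replicates. Sequences and positions are from RefSeq GRCm38.p6. A pathway gene and a marker gene of these lists are not reported here.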

Additional observations from a re-analysis of the deposited data

How the results depend on the processing

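Of 4 called ISGs, Gbp2 and Gbp7 passed in every alternative run, and Gbp3 failed with log2(TPM + 0.1) alone. The number of ISGs called was 10 with DESeq2, 8 with no filter beyond 1 count, 2 with log2(TPM + 0.1), 9 with the replicate block and 8 with a weight for each cell type. Of these, the number higher in B2 cells was 7 with DESeq2, 5 with no filter, 6 with the replicate block, 5 with the weights, 3 with limma-voom, 2 with upper quartile factors, 2 with at least 10 counts in every library, and 0 with either TPM fit or with a log2 fold change of at least 1. Adar, Samd9l, Sp100, Stat2 and Parp14 were the genes higher in B2 cells in the fits with no filter and with the weights. Leaving out replicates in turn gave 3 to 26 ISGs called, 3 to 7 higher in B1a and 0 to 20 higher in B2 cells; the count of 26 came from leaving out either B1a library, where the lone library is assumed to vary like the B2 pair and 3953 or 6143 of all genes were called. The other interferon-responsive genes called numbered 15 with DESeq2, 12 with no filter, 18 with the block, 14 with the weights and 6 to 35 with a replicate left out. The pathway genes called numbered 10 with DESeq2, 6 with limma-voom, 5 with at least 10 counts in every library, 9 with no filter, 10 with the block, 1 with a log2 fold change of at least 1, 12 with the weights and 2 to 20 with a replicate left out.

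The median log2 fold change of the ISGs was -0.79 with log2(TPM + 1) and -0.81 with log2(TPM + 0.1), on a scale on which the median of all genes was -0.29 and -0.32; in the other alternatives it lay between -0.57 and -0.39. The sign of Ifi204 turned without summing of entries, at 0.22, and Bst2 kept its sign in 5 of 10 alternatives. With a replicate left out, the log2 fold change ranged from -9.14 to 0.88 for Ifit1, from -6.76 to 0.59 for Ifit3, from -7.66 to 0.06 for Ifi204, from -0.235 to 0.078 for Trim25, from -2.24 to 0.028 for Ifi35, from -0.03 to 0.66 for Rsad2, from -0.90 to 0.76 for Bst2, from -0.37 to 0.24 for Ifih1, from -0.82 to 0.41 for Dhx58, from -0.96 to 0.09 for Parp9 and from -1.04 to 0.52 for Xaf1. Same-numbered libraries did not deviate together, with a correlation of -0.03, and by the methods they are different mice, so the replicate block pairs numbers only; it called 1481 of all genes against 693. The cause of these shifts was not tested. With 2 libraries per group, an exact permutation test of a single gene cannot go below 0.33.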
